A study of Mus musculus with 24 samples.

Results

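Collagen genes were taken as every gene whose symbol consists of Col, a number, the letter a and a number. The table held 42 such genes among 18820 with 1 symbol. They comprised 11 fibrillar collagens, 6 basement membrane collagens of type IV, 8 FACIT collagens (fibril-associated collagens with interrupted triple helices) and 17 others. Where a gene had several probe sets, the one of highest mean level across all 24 livers was used, and 4 members (Col5a1, Col6a5, Col6a6 and Col20a1) had more than 1. Col7a1 and Col9a3 shared their probe sets with Mir711 and Tcfl5 and were left out.

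Collagens are triple-helical proteins of the extracellular matrix. Fibrillar collagens of types I, III and V form the tensile fibres of scar tissue, type IV forms the sheet of basement membranes, type VI forms beaded filaments between these layers, and FACIT collagens sit on the surface of fibrils. In the injured liver, hepatic stellate cells and portal fibroblasts turn into myofibroblasts, which are the main source of fibrillar collagen.

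The study profiled liver RNA of 24 mice on Affymetrix arrays that cover whole transcripts, with 3 mice in each of 8 groups. The mice carry alleles on a C57BL/6 background, and gene loss in hepatocytes is driven by Cre recombinase under the albumin promoter (Alb-Cre), which is active in liver parenchymal cells and not in the stromal cells that make most collagen. NEMO/JNKΔhepa mice, a triple knockout of NEMO, Jnk1 and Jnk2 by label, were untreated and 52 weeks old, as were their control mice. JNKΔhepa mice, described as Jnk1LoxP/LoxP with Jnk2-/-, and mice labelled control were studied 28 days after bile duct ligation (BDL), which blocks bile flow. The same 2 genotypes were, by label, treated for 40 days with diethylnitrosamine (DEN), a liver carcinogen, which is called after DEN below. NEMO/JNK1Δhepa and NEMOΔhepa mice were untreated and 8 weeks old. The protocols name NEMOΔhepa and NEMOf/f mice as controls of the NEMO/JNK line, and the labels of single mice say only control. No age is stated for the BDL and DEN mice, and no untreated liver accompanied either injury.

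Below, NEMO/JNK, JNK, NEMO/JNK1 and NEMO stand for these genotype labels. Mapk8, the gene of JNK1, ran from 5.58 to 5.78 on the log2 scale in NEMO/JNK livers and from 6.33 to 6.69 in control livers of 52 weeks, from 5.41 to 6.0 in JNK BDL and 6.55 to 6.84 in control BDL livers, from 5.76 to 5.98 in JNK DEN and 6.36 to 6.63 in control DEN livers, and from 5.72 to 6.41 in NEMO/JNK1 and 6.50 to 6.82 in NEMO livers. It was thus lower in every liver labelled as lacking it than in any of its comparison group. Mapk9, the gene of JNK2, lay between 2.82 and 3.51 on the log2 scale in 18 livers, the 9 labelled control included, and between 7.99 and 8.53 in the 6 livers of 8 weeks. The comparisons with livers labelled control therefore did not contrast livers with and without Mapk9 transcript. Ikbkg, the gene of NEMO, ran from 6.76 to 7.02 in livers labelled NEMO/JNK1 and from 6.80 to 7.26 in those labelled NEMO, against 6.43 to 6.47 in NEMO/JNK livers and 7.0 to 7.48 in control livers of 52 weeks. Hepatocyte markers averaged between 12.46 and 12.82 in all 24 livers. Control BDL replicates 1 and 2 came from another animal series, by the prefix of the mouse identifier, than control BDL replicate 3 and the 3 JNK BDL livers. All NEMO/JNK1 livers belonged to one animal series and all NEMO livers of 8 weeks to another, so that series and genotype cannot be told apart there.

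Within several groups the same liver was highest in 6 of the collagen genes. Col1a1, Col1a2, Col3a1, Col4a1, Col4a2 and Col6a3 were all highest in JNK DEN replicate 2 among the 3 livers of its group, and likewise in control replicate 2 at 52 weeks, in control BDL replicate 1 and in NEMO replicate 3 at 8 weeks. Over all 42 members these livers were highest in 19, 19, 18 and 21, in that order. In any gene 1 of the 3 livers must be the highest. Markers of stellate cells and myofibroblasts were also highest in these 4 livers within their groups, with a mean over the 13 markers of 7.18 in JNK DEN replicate 2, 7.27 in control replicate 2 at 52 weeks, 8.31 in control BDL replicate 1 and 7.73 in NEMO replicate 3. Control DEN replicate 2 was highest of its group in 5 of the 6 genes, but lowest in these markers, at 6.59 against 6.77 and 6.71. Biliary epithelial markers averaged 7.20 in JNK DEN replicate 2, against 5.19 and 6.04 in the other JNK DEN livers. In NEMO replicate 3 adipose tissue markers averaged 4.42, against 3.36 and 3.27 in the other NEMO livers. Exocrine pancreas markers averaged 3.75 there, against 3.39 and 3.24. The part of these markers in the collagen values was not tested. In bulk tissue, more collagen-producing cells and more collagen RNA in each cell cannot be told apart.

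The promoters of 4 members are shown because Col1a2 and Col3a1 are among the members with the largest differences between the injuries, and Col4a1 and Col4a2 are a head-to-head pair with nearly equal differences. Col4a1 and Col4a2 encode the ubiquitous chains of type IV collagen and start head to head on chromosome 8, Col1a2 encodes the second chain of type I collagen, and Col3a1 encodes type III collagen. The windows run from 250 bases before to 50 bases after the gene start, 5′ to 3′ on the strand of the gene, from RefSeq on GRCm38.p6. Capitals mark matches on either strand to the CCAAT motif, to the GC box, spelled GGGCGG, and to the TATA box, spelled TATAAA.
Col4a1, chr8:11312777-11313076, minus strand: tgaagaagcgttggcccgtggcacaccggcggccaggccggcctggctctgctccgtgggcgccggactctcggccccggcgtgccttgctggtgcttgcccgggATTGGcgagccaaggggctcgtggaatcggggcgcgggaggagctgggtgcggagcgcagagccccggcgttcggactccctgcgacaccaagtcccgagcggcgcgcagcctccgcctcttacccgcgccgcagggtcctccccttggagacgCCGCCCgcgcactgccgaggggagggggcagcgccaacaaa
Col4a2, chr8:11312555-11312854, plus strand: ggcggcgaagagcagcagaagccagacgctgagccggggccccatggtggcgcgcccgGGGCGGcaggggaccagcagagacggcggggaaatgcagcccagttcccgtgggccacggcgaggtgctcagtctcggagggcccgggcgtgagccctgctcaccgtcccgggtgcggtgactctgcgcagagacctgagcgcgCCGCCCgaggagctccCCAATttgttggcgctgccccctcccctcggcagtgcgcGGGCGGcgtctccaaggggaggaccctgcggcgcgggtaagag
Col1a2, chr6:4505368-4505667, plus strand: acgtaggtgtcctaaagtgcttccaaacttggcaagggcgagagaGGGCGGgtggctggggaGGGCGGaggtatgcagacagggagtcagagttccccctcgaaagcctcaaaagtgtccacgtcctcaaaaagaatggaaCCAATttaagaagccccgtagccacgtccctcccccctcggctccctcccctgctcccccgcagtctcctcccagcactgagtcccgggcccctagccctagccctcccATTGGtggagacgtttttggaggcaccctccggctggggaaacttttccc
Col3a1, chr1:45311288-45311587, plus strand: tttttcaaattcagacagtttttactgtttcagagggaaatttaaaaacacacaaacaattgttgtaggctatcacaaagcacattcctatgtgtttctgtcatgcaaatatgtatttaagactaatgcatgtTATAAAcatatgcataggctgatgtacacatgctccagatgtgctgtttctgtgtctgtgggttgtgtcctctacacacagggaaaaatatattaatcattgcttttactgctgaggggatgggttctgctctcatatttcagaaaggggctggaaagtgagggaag
The windows of Col4a1 and Col4a2 overlap by 78 bases, and the 2 starts lie 21 bases apart. CCAAT and the GC box occur in both. Col1a2 has 2 matches to CCAAT and 2 to the GC box, whereas Col3a1 has a single match, to the TATA box. Of 37 windows of 34 members, 12 held CCAAT (32.4 percent), 22 the GC box (59.5 percent) and 5 the TATA box (13.5 percent), against 37.4, 35.7 and 13.6 percent of 32851 windows of all genes. None of the 3 motifs contains another, and a match describes the sequence only. For Col1a1, Col2a1, Col4a3, Col5a2, Col12a1, Col14a1, Col22a1 and Col26a1 no promoter is shown.

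Across the 8 groups some collagens varied widely in level and more of them varied less. Between the highest and the lowest group mean, 15 members spanned at least 1 on the log2 scale, where 1 corresponds to a doubling, and 6 of them at least 2. Those 6 were Col1a1 (span 3.72), Col3a1 (3.56), Col1a2 (3.32), Col6a5 (2.39), Col6a3 (2.16) and Col5a2 (2.09). The other 27 members spanned between 0.17, for Col4a6, and 0.91, for Col4a3. The spans showed no gap at this cut, with 1.03 for Col14a1 and 1.06 for Col4a5 just above it. Col5a1, Col5a3, Col17a1 and Col28a1 are among the 27 and were each called in a comparison below. The highest group mean was in JNK BDL livers for 16 members, in control livers of 52 weeks for 14, in control BDL and control DEN livers for 5 each, and in NEMO/JNK and NEMO/JNK1 livers for 1 each. These 14 included Col2a1, Col24a1 and Col27a1, fibrillar collagens best known from cartilage and bone, whose spans were 0.37, 0.36 and 0.24.

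**Figure D1:**
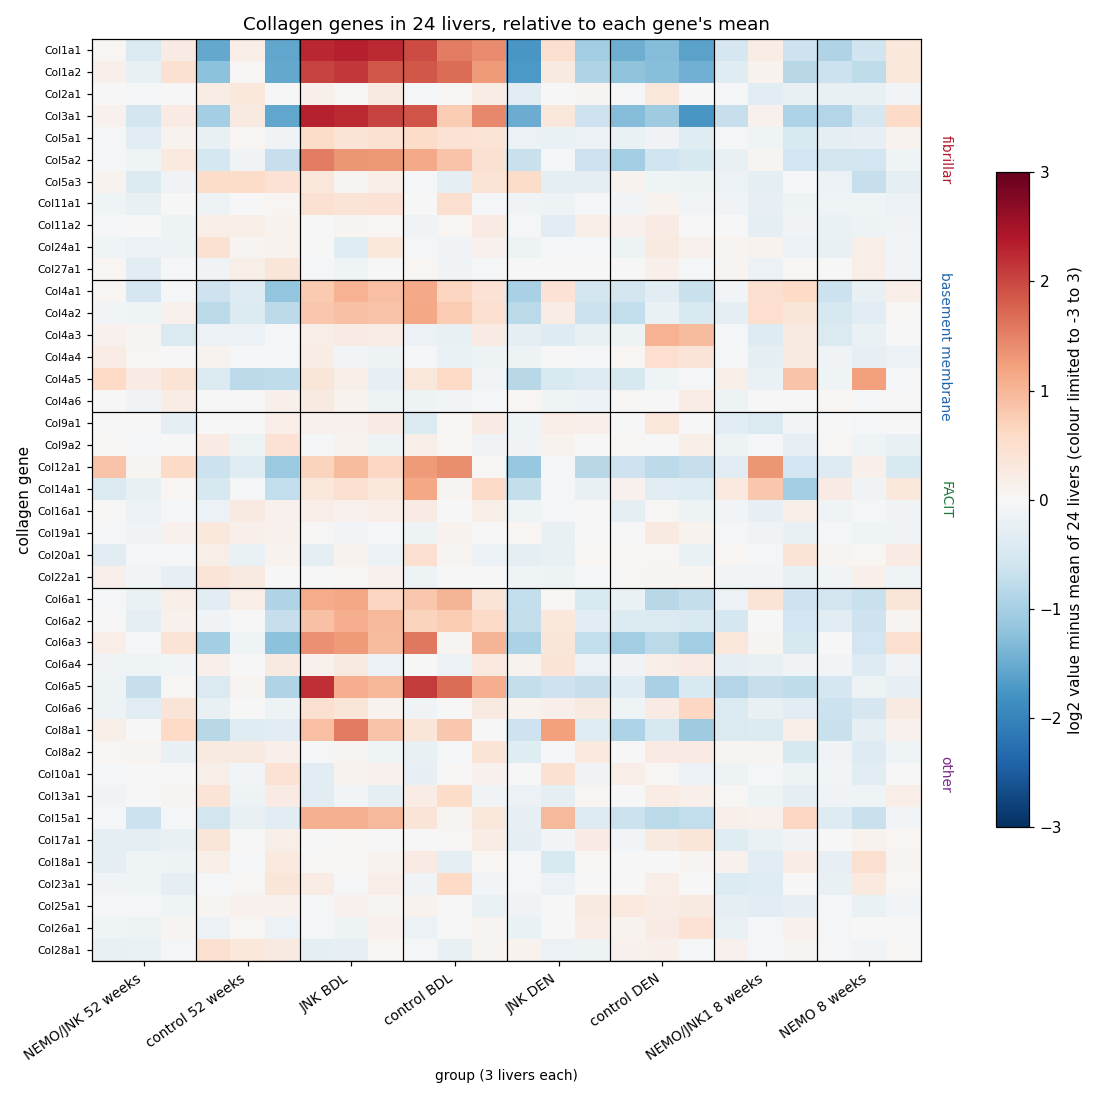
Each cell is the log2 value of a collagen gene (rows, by class) in 1 liver (columns, 3 to a group) minus the mean of that gene over 24 livers, in colour limited to -3 to 3. Col1a1, Col1a2, Col3a1, Col5a2 and Col6a5 are above their means in all 6 BDL livers, while most FACIT and other collagens stay near the middle of the scale.

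For type I collagen the order of the group means placed the livers with ligated ducts first. Col1a1, which encodes the main chain of type I collagen, averaged 9.88 ± 0.05 in JNK BDL livers and 9.24 ± 0.28 in control BDL livers (SD, n = 3 each, as for all means here). It averaged 7.57 ± 0.35 in NEMO/JNK livers of 52 weeks, 7.30 ± 0.46 in NEMO/JNK1 livers, 7.21 ± 0.63 in NEMO livers, 6.84 ± 1.14 in JNK DEN livers, 6.64 ± 1.02 in control livers of 52 weeks and 6.16 ± 0.15 in control DEN livers. The ranges of every pair of neighbours in this order overlapped except JNK BDL and control BDL, and control BDL and NEMO/JNK.

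**Figure D2:**
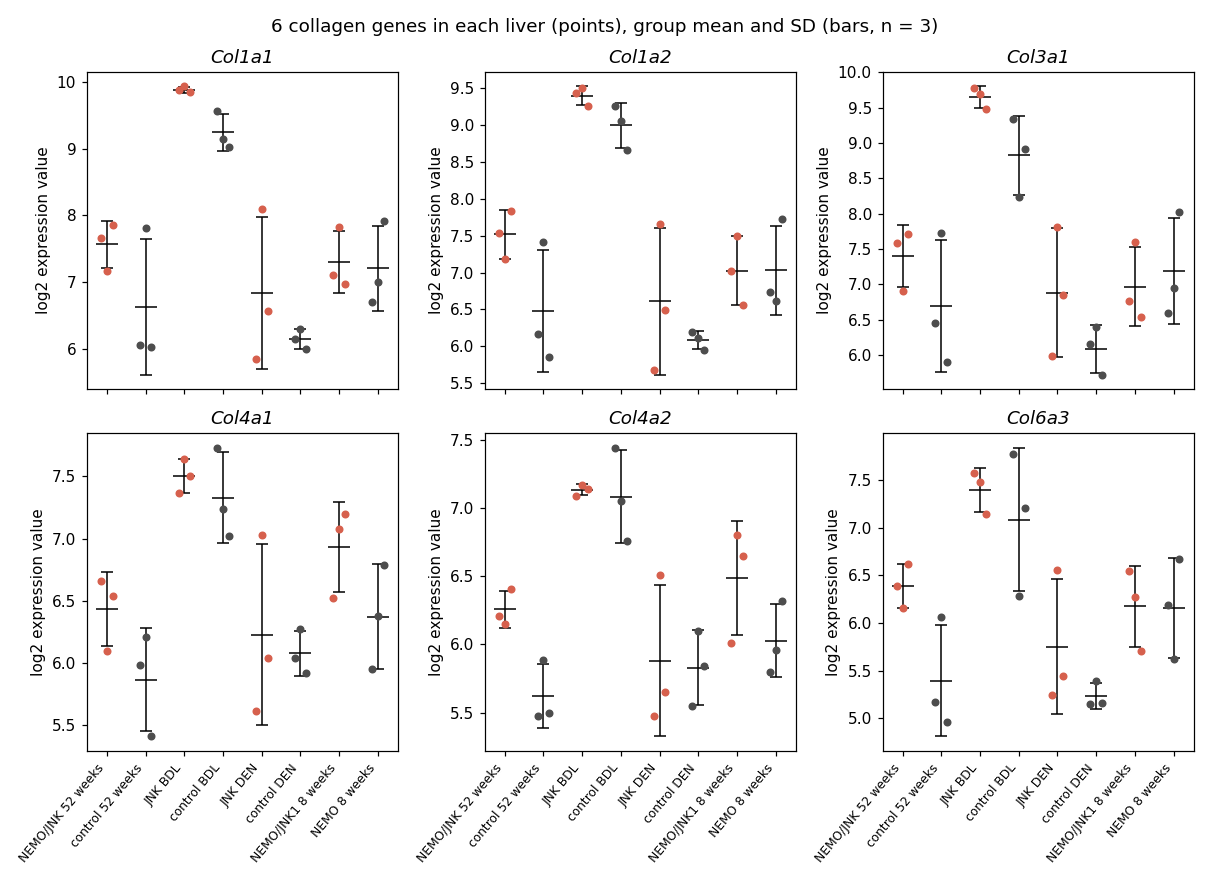
Points are the log2 values of 6 collagen genes in each of the 24 livers, horizontal bars the group means and vertical bars the SD (n = 3). All 6 BDL livers exceed the DEN livers of their genotype in Col1a1, Col1a2 and Col3a1, and JNK DEN replicate 2 lies above the other 2 JNK DEN livers in all 6 genes.

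The comparison of the injuries, which uses the same livers as the comparisons of JNK with control, asked how collagen RNA differed between a cholestatic and a carcinogen-treated liver of the same genotype label. In control livers 13 of 42 members were higher after BDL than after DEN and 0 were lower (limma, Benjamini-Hochberg adjusted p under 0.05 over all genes). Those 31 percent stood against 1.74 percent of all genes called higher and 0.739 percent called lower. The 13 were 5 of 11 fibrillar collagens, 2 of 6 basement membrane collagens, 0 of 8 FACIT collagens and 6 of 17 others. The median difference was 0.08 over the 42 members and -0.03 over all genes, and 29 members were not called.

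Among the probe sets used, those of the type I chains differed most, and a second probe set of Col6a5 gave a larger difference (3.38). Col1a1 stood at 9.56, 9.14 and 9.03 in control BDL livers and at 6.15, 6.31 and 6.01 in control DEN livers. Every BDL liver exceeded every DEN liver, and the difference was 3.09 (SE 0.17), which is 8.49-fold (limma adjusted p = 0.000729). Col1a2 had 9.26, 9.06 and 8.67 in control BDL livers, against 6.19, 6.11 and 5.95 in control DEN livers. It was 7.54-fold higher (log2 difference 2.91, SE 0.17, limma adjusted p = 0.000736). These 2 chains form the same heterotrimer, and both calls held in all 15 alternative fits.

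Col3a1, the fibrillar collagen laid down beside type I in young scar, reached 9.34, 8.23 and 8.91 in control BDL livers and 6.15, 6.39 and 5.72 in control DEN livers. The groups did not overlap, with control BDL replicate 2 the lowest of its group (difference 2.74, SE 0.29, limma adjusted p = 0.00763). Col5a2, a chain of the type V collagen that nucleates fibrils, had 6.28, 5.99 and 5.60 after BDL and 4.10, 4.55 and 4.65 after DEN (1.52, SE 0.21, adjusted p = 0.0191). Its partner chain Col5a1 was higher after BDL by 0.68 (SE 0.12, adjusted p = 0.033). A second probe set of Col5a1 gave 0.08, and the call was lost when both were averaged. The remaining 6 fibrillar collagens, Col2a1, Col5a3, Col11a1, Col11a2, Col24a1 and Col27a1, were not called.

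Both ubiquitous type IV chains were higher after BDL than after DEN. Col4a1 had 7.73, 7.24 and 7.02 in control BDL livers and 6.04, 6.27 and 5.92 in control DEN livers (1.25, SE 0.20, limma adjusted p = 0.0261). Col4a2 had 7.44, 7.05 and 6.76, against 5.55, 6.10 and 5.84 (1.25, SE 0.21, adjusted p = 0.0297). In control livers the chains with restricted expression did not follow. Col4a3 averaged 4.74 after BDL and 5.40 after DEN (difference -0.66, SE 0.31, adjusted p = 0.3), Col4a4 differed by -0.44 (adjusted p = 0.158), Col4a5 by 0.50 (0.226) and Col4a6 by -0.17 (0.475). Without control DEN replicate 1 Col4a3 was the 1 member called lower (-1.04, adjusted p = 0.0479).

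Among the other collagens, type VI gave most of the calls. Col6a2 had 6.69, 6.79 and 6.60 in control BDL livers and 5.61, 5.59 and 5.58 in control DEN livers (1.10, SE 0.11, limma adjusted p = 0.00563). The 3 DEN values had an SD of 0.01. Col6a5 had 7.60, 7.20 and 6.61, against 5.15, 4.55 and 5.06 (2.21, SE 0.27, adjusted p = 0.0127), and its second probe set gave 3.38. Col6a1 was higher after BDL by 1.32 (SE 0.21, adjusted p = 0.0271). Col6a3, the large chain from which the fragment endotrophin is cut, had 7.77, 6.28 and 7.21 after BDL and 5.15, 5.39 and 5.16 after DEN (1.85, SE 0.33, adjusted p = 0.0366). Col15a1, a multiplexin of the basement membrane zone, had 6.59, 6.29 and 6.54, against 5.57, 5.41 and 5.46 (0.99, SE 0.13, adjusted p = 0.0143). Col8a1, a short-chain network collagen, was higher after BDL by 1.21 (SE 0.24, adjusted p = 0.0467). Col18a1, the multiplexin that carries endostatin, differed by only -0.02 (95 percent interval -0.36 to 0.33).

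None of the 8 FACIT collagens was called. The Col12a1 and Col14a1 values varied widely among control BDL livers. Col12a1 averaged 6.14 ± 0.75 in control BDL livers and 4.54 ± 0.09 in control DEN livers (1.61, SE 0.33, limma adjusted p = 0.0519), and Col14a1 8.97 ± 0.55 and 8.17 ± 0.27 (0.80, adjusted p = 0.175). The values of the 2 groups did not overlap for 14 members higher and 5 lower after BDL (33.3 and 11.9 percent), against 12.8 and 12.2 percent of all genes. With animal series as a fixed term 2 of the 13 calls were left, Col1a1 and Col1a2, and the other 11 were not called. The number higher was 5 without control BDL replicate 1, 7 without control BDL replicate 2, 8 without control DEN replicate 1, 4 without control DEN replicate 2 and 5 without control DEN replicate 3. In the same order 49, 163, 132, 45 and 81 of all genes were called higher, against 327 with all livers. Col1a1, Col1a2, Col3a1 and Col6a2 were called in each of the fits that left out 1 liver.

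In JNK livers 5 of 42 members were higher after BDL than after DEN and 0 were lower. Those 11.9 percent stood against 0.77 percent of all genes called higher and 0.313 percent called lower. The 5 were the fibrillar chains Col1a2, Col3a1, Col5a1 and Col5a2 and the type VI chain Col6a5. Col5a2 had 6.67, 6.47 and 6.44 in JNK BDL livers and 4.46, 5.11 and 4.52 in JNK DEN livers (1.83, SE 0.19, limma adjusted p = 0.0139). Col6a5 had 7.70, 6.61 and 6.50, against 4.79, 4.89 and 4.81 (2.10, SE 0.31, adjusted p = 0.0357), and its second probe set gave 3.05. JNK DEN replicate 2, the highest of its group in the 6 genes named above, was close to the other JNK DEN livers in Col6a5. Col5a1 had 5.92, 5.77 and 5.82 after BDL and 5.18, 5.17 and 5.18 after DEN (0.66, SE 0.10, adjusted p = 0.0378). Its second probe set gave 0.14 here, and the call was lost in 10 of 14 alternative fits, the mean of both probe sets, centred arrays and quantile normalisation among them.

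The type I and III chains differed by as much as in control livers, with a wider spread among JNK DEN livers. Col3a1 had 9.78, 9.69 and 9.48 in JNK BDL livers and 5.98, 7.81 and 6.85 in JNK DEN livers (2.78, SE 0.42, limma adjusted p = 0.0382). Col1a2 had 9.43, 9.51 and 9.26, against 5.68, 7.66 and 6.49 (2.79, SE 0.45, adjusted p = 0.0468). Col1a1 had 9.87, 9.93 and 9.84, against 5.86, 8.09 and 6.57, and its difference of 3.04 (SE 0.51) had an adjusted p of 0.0513. In Col1a1 the JNK BDL livers had an SD of 0.05 and the JNK DEN livers one of 1.14. The same held for Col4a1, at 7.37, 7.64 and 7.50 after BDL and 5.61, 7.03 and 6.04 after DEN, and for Col4a2, at 7.09, 7.17 and 7.14 after BDL and 5.48, 6.51 and 5.65 after DEN. Their differences of 1.27 and 1.26 were not called (adjusted p = 0.16 and 0.0864). Col6a3 had 7.57, 7.48 and 7.14, against 5.25, 6.56 and 5.45 (1.64, adjusted p = 0.0844).

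In JNK livers 18 members were higher in all BDL livers than in all DEN livers and 0 were lower (42.9 percent), against 10.5 and 9.39 percent of all genes. At an unadjusted p under 0.05 there were 17 of 42 members, beside 2530 of 18820 genes. Without JNK DEN replicate 2 the number called was 16, with Col1a1 (3.67), Col4a1 (1.67), Col4a2 (1.57), Col6a1 (1.56), Col6a2 (1.49), Col6a3 (2.05), Col8a1 (1.59), Col12a1 (1.73), Col14a1 (0.85), Col15a1 (1.35) and Col11a1 (0.51) added. JNK DEN replicate 2 was the highest of its group in each added gene but Col11a1, so that leaving it out raises those differences by construction. Of all genes 836 were called higher in that fit, against 145 with all livers. The number of members was 1 without JNK BDL replicate 1, 0 without JNK BDL replicate 2 or 3, 3 without JNK DEN replicate 1 and 1 without JNK DEN replicate 3. In the same order 7, 14, 2, 141 and 73 of all genes were called higher.

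**Figure D3:**
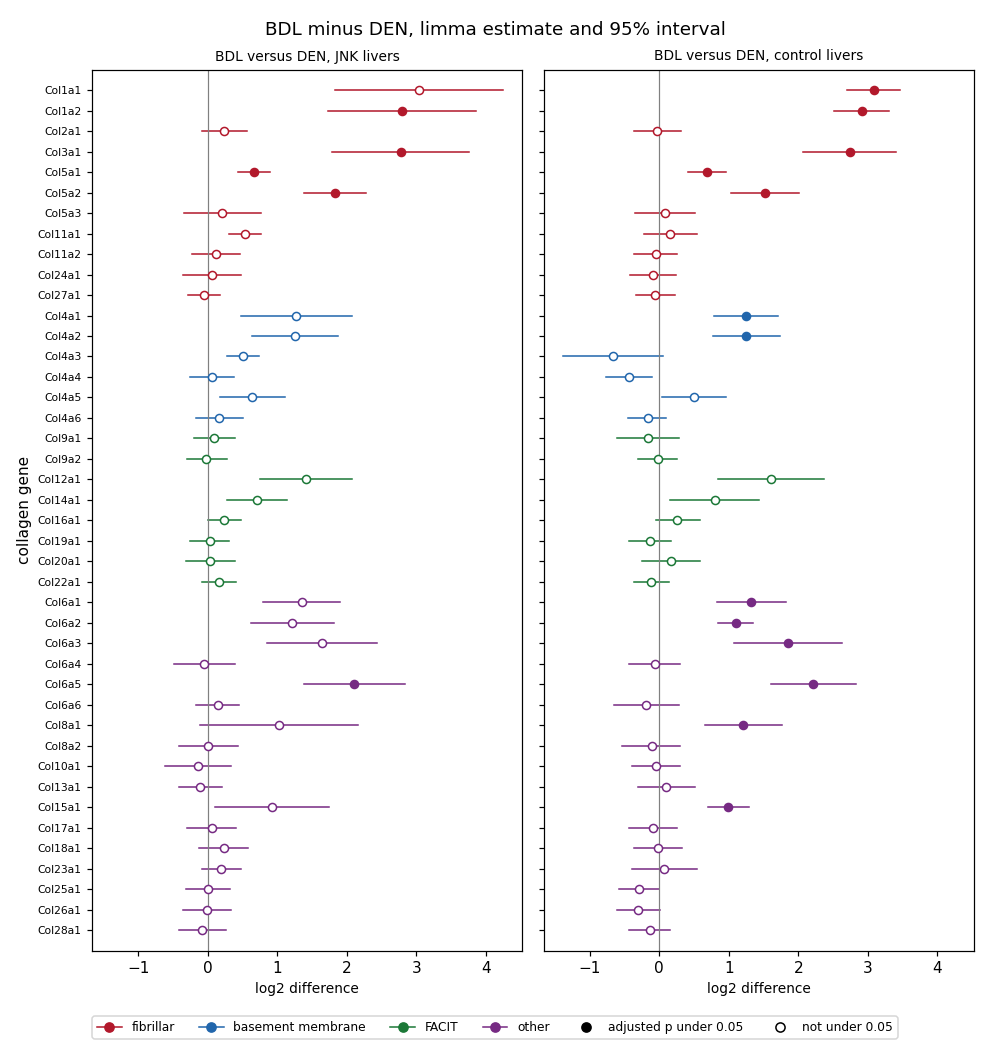
Points are log2 differences of BDL minus DEN livers for the 42 collagen genes, in JNK livers (left) and control livers (right), with 95 percent intervals from limma and filled points at an adjusted p under 0.05. The largest differences belong to the same 3 fibrillar chains in both panels, near 3 for Col1a1, and the intervals of the JNK livers are wider for most of the 13 genes called in control livers.

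Some genes of collagen synthesis and cross-linking were also higher after BDL than after DEN. Of all genes, 1.74 percent were called higher and 0.739 percent lower in control livers, and 0.77 and 0.313 percent in JNK livers. Of 29 measured genes for collagen modification, folding, secretion, trimming and cross-linking, 5 were higher in control BDL than in control DEN livers and 0 lower, with a median of 0.42, and 24 were not called. Loxl1, a lysyl oxidase-like cross-linking enzyme, averaged 6.24 ± 0.28 after BDL and 4.23 ± 0.29 after DEN (2.01, limma adjusted p = 0.00524). Lox, the founding lysyl oxidase, averaged 5.98 ± 0.82 and 3.14 ± 0.15 (2.85, adjusted p = 0.0143), and Loxl2 6.96 ± 0.23 and 5.58 ± 0.30 (1.38, adjusted p = 0.0189). In JNK livers 5 were higher and 0 lower, with a median of 0.28, and again 24 were not called. Lox was higher by 2.52 (adjusted p = 0.0134), Plod2, a lysyl hydroxylase of collagen telopeptides, by 1.78 (0.0317), and Loxl4 by 1.29 (0.0346). Of 9 collagen receptors and uptake genes 2 were higher after BDL in control livers, the endocytic receptor Mrc2 (1.69, adjusted p = 0.00523) and the discoidin receptor Ddr2 (0.70, 0.0482). In JNK livers 0 were called, with 3 at an unadjusted p under 0.05, where Mrc2 differed by 1.39 (adjusted p = 0.0618) and Ddr2 by 0.57 (0.0972).

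Markers of matrix-producing and other cells also differed between the injuries. The shares of all genes called higher and lower were 1.74 and 0.739 percent in control livers and 0.77 and 0.313 percent in JNK livers. Of 13 stellate cell and myofibroblast markers 7 were higher and 0 lower after BDL in control livers (median 1.11), and 4 were higher and 0 lower in JNK livers (1.06). One of these markers, Lox, is also on the cross-linking list. The mean level of the list was 7.84 to 7.92 in JNK BDL and 6.60 to 7.18 in JNK DEN livers, and 7.77 to 8.31 in control BDL and 6.59 to 6.77 in control DEN livers. Portal fibroblast markers were higher in 2 of 6 in control livers and 1 of 6 in JNK livers, and biliary markers in 3 of 8 and 0 of 8. None was called lower, but 1 biliary marker was lower in every control BDL liver than in any control DEN liver (-2.86, not called). Macrophage markers were higher in 1 of 7 in each genotype, with a mean level of 9.12 to 9.46 in JNK BDL and 8.05 to 8.93 in JNK DEN livers, and of 8.85 to 9.03 in control BDL and 8.10 to 8.44 in control DEN livers. Mesothelial markers were higher in 0 of 6 in JNK livers (4.63 to 5.06 after BDL and 3.75 to 4.28 after DEN) and 1 of 6 in control livers (4.39 to 4.46 and 3.81 to 4.18). The part of all these markers in the collagen differences was not tested.

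The comparison of JNK with control livers after BDL asked whether the genotype label went with different collagen levels in cholestatic livers. Col15a1 was higher in JNK livers, and 0 of 42 members were lower. This 1 member is 2.38 percent, against 0.797 percent of all genes called higher and 0.558 percent called lower. Col15a1 stood at 7.27, 7.27 and 7.17 in JNK BDL livers and at 6.59, 6.29 and 6.54 in control BDL livers, without overlap (difference 0.76, SE 0.11, 1.70-fold, limma adjusted p = 0.0237). The single control BDL liver of the animal series of the JNK mice had 6.54. With animal series as a fixed term the difference was 0.70 (adjusted p = 0.139). The call was also absent with the replicate number as a block (adjusted p = 0.0784), without JNK BDL replicate 1, 2 or 3, without control BDL replicate 1 and with all 24 arrays fitted together, where the adjusted p reached 0.252.

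Of the 11 fibrillar collagens, Col1a1, Col1a2, Col3a1 and Col5a2 lay higher in every JNK BDL liver than in any control BDL liver without passing the test over all genes. Col1a1 had 9.87, 9.93 and 9.84 in JNK BDL livers, against 9.56, 9.14 and 9.03 in control BDL livers (0.64, SE 0.15, limma adjusted p = 0.097). It passed without control BDL replicate 1 (0.79, adjusted p = 0.043), the highest control liver in this gene. That was 1 of 15 alternative fits, and in the other 14 it was not called, with an adjusted p of up to 0.753. Col5a2 had 6.67, 6.47 and 6.44, against 6.28, 5.99 and 5.60 (0.57, SE 0.17, adjusted p = 0.181), and Col3a1 9.78, 9.69 and 9.48, against 9.34, 8.23 and 8.91 (0.82, SE 0.25, adjusted p = 0.187). Col1a2, at 9.43, 9.51 and 9.26 against 9.26, 9.06 and 8.67, lay only just above the control range (0.40, SE 0.16, adjusted p = 0.307). Col5a1 overlapped, with a difference of 0.02 (95 percent interval -0.22 to 0.26). In all, 7 members were higher in all 3 JNK livers and 0 lower in all 3 (16.7 and 0 percent), against 9.95 and 10.7 percent of all genes. At an unadjusted p under 0.05 there were 8 of 42 members, beside 2749 of 18820 genes.

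Type IV and most type VI chains showed smaller differences. Col4a1 had 7.37, 7.64 and 7.50 in JNK BDL livers and 7.73, 7.24 and 7.02 in control BDL livers (0.17, 95 percent interval -0.25 to 0.60). Col4a2 differed by 0.05 (-0.34 to 0.44) and Col6a3 by 0.31 (-0.46 to 1.08), intervals that leave room for moderate changes in either direction. Among synthesis genes 0 of 29 were called and 7 had an unadjusted p under 0.05. The lysyl hydroxylase Plod1 differed by 0.50 (limma adjusted p = 0.0718) and the collagen chaperone Serpinh1 by 0.97 (0.096). Of the 9 receptors 0 were called and 1 had an unadjusted p under 0.05. Among stellate cell and myofibroblast markers Acta2, the smooth muscle actin of myofibroblasts, was higher by 1.35 (adjusted p = 0.0276) and Lrat, the retinol-esterifying enzyme of quiescent stellate cells, lower by 1.49 (0.0105), and the other 11 were not called. The mean level of the list overlapped, at 7.84 to 7.92 in JNK BDL and 7.77 to 8.31 in control BDL livers. Biliary markers averaged 6.57 to 7.24 and 5.70 to 6.54, with 0 of 8 called. Macrophage markers averaged 9.12 to 9.46 in JNK BDL and 8.85 to 9.03 in control BDL livers, with 0 of 7 called, and mesothelial markers 4.63 to 5.06 and 4.39 to 4.46, with 0 of 6 called. The 2 groups did not overlap in the mean level of these last 3 lists, and the part of these markers was not tested.

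After DEN no member was called between JNK and control livers by limma, and 0 percent of all genes were called in either direction. The 3 members at an unadjusted p under 0.05, beside 781 of 18820 genes, were Col4a3, Col4a4 and Col15a1. Col4a3, a chain of the type IV network of kidney and lung, had 4.51, 4.40 and 4.55 in JNK DEN livers and 4.64, 5.82 and 5.73 in control DEN livers (difference -0.91, SE 0.31, adjusted p = 0.985). Control DEN replicates 2 and 3 lay above replicate 1 and held the highest values of this gene in the 24 livers. Col4a4, its neighbour on chromosome 1, had 4.28, 4.44 and 4.41, against 4.49, 4.94 and 4.83 (-0.38, SE 0.15, adjusted p = 0.985), again highest in the same 2 control livers. Col15a1 had 5.96, 7.19 and 5.81, against 5.57, 5.41 and 5.46 (0.84, SE 0.35, adjusted p = 0.985). In this gene JNK DEN replicate 2 stood apart from the other 2 JNK livers.

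The fibrillar chains differed by less than the spread among JNK DEN livers. Col1a1 differed by 0.68 (95 percent interval -0.54 to 1.90), Col1a2 by 0.53 (-0.54 to 1.59) and Col3a1 by 0.79 (-0.25 to 1.83). These intervals include changes of more than 2-fold upwards, so that a rise of that size cannot be set aside from these livers. Col4a1 differed by 0.15 (-0.66 to 0.97), Col4a2 by 0.05 (-0.64 to 0.73) and Col6a3 by 0.52 (-0.26 to 1.30). The groups were apart for 1 member higher and 3 lower (2.38 and 7.14 percent), against 3.26 and 6.21 percent of all genes. Of the synthesis and receptor genes 0 were called, with 2 and 0 at an unadjusted p under 0.05.

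Whether the JNK difference itself differed between BDL and DEN was tested by an interaction term over 12 livers. No member was called, against 0.0213 percent of all genes higher and 0.0266 percent lower. An unadjusted p under 0.05 was reached by 2 of 42 members and 1338 of 18820 genes. The term was 1.16 (SE 0.36, limma adjusted p = 0.545) for Col4a3, 0.50 (adjusted p = 0.629) for Col4a4 and 0.28 (adjusted p = 0.715) for Col22a1, a FACIT collagen of tissue junctions. Without control DEN replicate 1 Col4a3 was called (1.54, adjusted p = 0.0235). That was 1 of 21 alternative fits, and in the other 20 it was not called, with an adjusted p of up to 0.966. For Col1a1 the term was -0.05 with a 95 percent interval of -1.33 to 1.24, and for Col15a1 -0.07 with one of -0.94 to 0.79.

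At 52 weeks the comparison of NEMO/JNK with control livers asked how collagens differed in the aged, untreated knockout. Of 42 members 5 were higher and 3 lower (11.9 and 7.14 percent), against 13.6 and 7.9 percent of all genes, so that the members were called about as often as genes at large. The higher members were Col4a2 and Col4a5 of the basement membrane, the FACIT collagen Col12a1, and Col6a3 and Col8a1. The lower members were the fibrillar Col5a3 and the others Col17a1 and Col28a1. The median difference was -0.05 over the members and -0.05 over all genes. Of the 42 members 13 had an unadjusted p under 0.05, beside 6654 of 18820 genes.

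Col4a5, an X-linked type IV chain, had 4.87, 4.53 and 4.68 in NEMO/JNK livers and 3.87, 3.50 and 3.52 in control livers. All knockout values lay above all control values, and the difference was 1.06 (SE 0.15, 2.09-fold, limma adjusted p = 0.00163). Col12a1, which links fibrils to their surroundings, had 6.10, 5.31 and 5.82, against 4.60, 4.87 and 4.13 (1.21, SE 0.24, 2.32-fold, adjusted p = 0.00773). Col5a3, a type V chain, had 5.23, 4.72 and 5.02, against 5.68, 5.66 and 5.56 (-0.64, SE 0.15, adjusted p = 0.0151). Calls of these 3 genes held in all 14 alternative fits.

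The other calls were lost under some settings. Col4a2 had 6.21, 6.15 and 6.41 in NEMO/JNK livers and 5.48, 5.89 and 5.50 in control livers (0.63, SE 0.15, limma adjusted p = 0.0172). It was lost without NEMO/JNK replicate 3 and without control replicate 1 or 3. Col8a1 had 4.73, 4.54 and 5.15, against 3.73, 4.21 and 4.24 (0.75, SE 0.20, adjusted p = 0.0253), a call lost without NEMO/JNK replicate 1 or 3 or control replicate 1. Col6a3 had 6.39, 6.16 and 6.62, against 5.17, 6.06 and 4.96 (0.99, SE 0.27, adjusted p = 0.0289), with control replicate 2 just below the lowest knockout value. Its call was lost without NEMO/JNK replicate 1 or 3 or control replicate 1 or 3. Col28a1, a collagen with von Willebrand factor domains, had 3.70, 3.71 and 3.86, against 4.40, 4.24 and 4.18 (-0.51, SE 0.12, adjusted p = 0.0165), a call lost without NEMO/JNK replicate 1 among the fits that left out a liver. Col17a1, a transmembrane collagen of epithelial hemidesmosomes, had 3.37, 3.36 and 3.42, against 4.0, 3.65 and 3.82 (-0.44, SE 0.13, adjusted p = 0.0361). Only the fit without control replicate 2 kept it among the 6 that left out 1 liver. Without NEMO/JNK replicate 1 a single member was called lower. The calls of Col4a2 and Col8a1 were also lost with centred arrays, with quantile normalisation and with all 24 arrays in 1 fit, that of Col6a3 with all 24 arrays, and that of Col17a1 with the replicate block.

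The fibrillar chains of scar were not called with all livers in the fit, and were called in the fit without 1 control liver. Col1a1 had 7.67, 7.17 and 7.86 in NEMO/JNK livers and 6.06, 7.81 and 6.04 in control livers (0.93, SE 0.43, limma adjusted p = 0.162). Col1a2 had 7.54, 7.18 and 7.84, against 6.17, 7.42 and 5.85 (1.04, SE 0.36, adjusted p = 0.0748), and Col3a1 7.59, 6.90 and 7.71, against 6.45, 7.72 and 5.90 (0.71, SE 0.42, adjusted p = 0.259). Control replicate 2 was the highest control in all 3 chains and reached the range of the knockouts. Leaving out the highest control raises these differences by construction. Whether that liver exceeds ordinary variation among controls cannot be told from 3 livers. Without control replicate 2, 9 members were higher, with Col1a1 (1.52, SE 0.21, adjusted p = 0.00233), Col1a2 (1.51, adjusted p = 0.00259), Col3a1 (1.22, adjusted p = 0.0181) and Col5a2 (0.64, adjusted p = 0.0335) added. Col4a1 had 6.66, 6.10 and 6.54 in NEMO/JNK livers and 5.98, 6.21 and 5.41 in control livers (0.56, adjusted p = 0.108). The number higher was 3 without NEMO/JNK replicate 1, 2 without NEMO/JNK replicate 3 or control replicate 1 and 3 without control replicate 3.

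More members lay wholly below control than above it. The groups did not overlap for 5 members higher and 11 lower (11.9 and 26.2 percent), against 20.9 and 20.3 percent of all genes. The 11 included Col18a1, at 8.38 ± 0.08 in NEMO/JNK livers and 8.71 ± 0.17 in control livers (-0.33, limma adjusted p = 0.0975), and Col24a1 (-0.36, adjusted p = 0.0853). The count of lower members turned on the scale of the arrays. With each array centred on its median, 3 members were higher and 21 lower, beside 1570 and 8942 of 18820 genes, and the median of all genes moved to -0.37. Quantile normalisation gave 3 members higher and 10 lower, beside 2115 and 2426 genes. Col6a3, Col4a5 and Col12a1 were higher by at least 0.67, 0.74 and 0.89 under every alternative run.

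**Figure D4:**
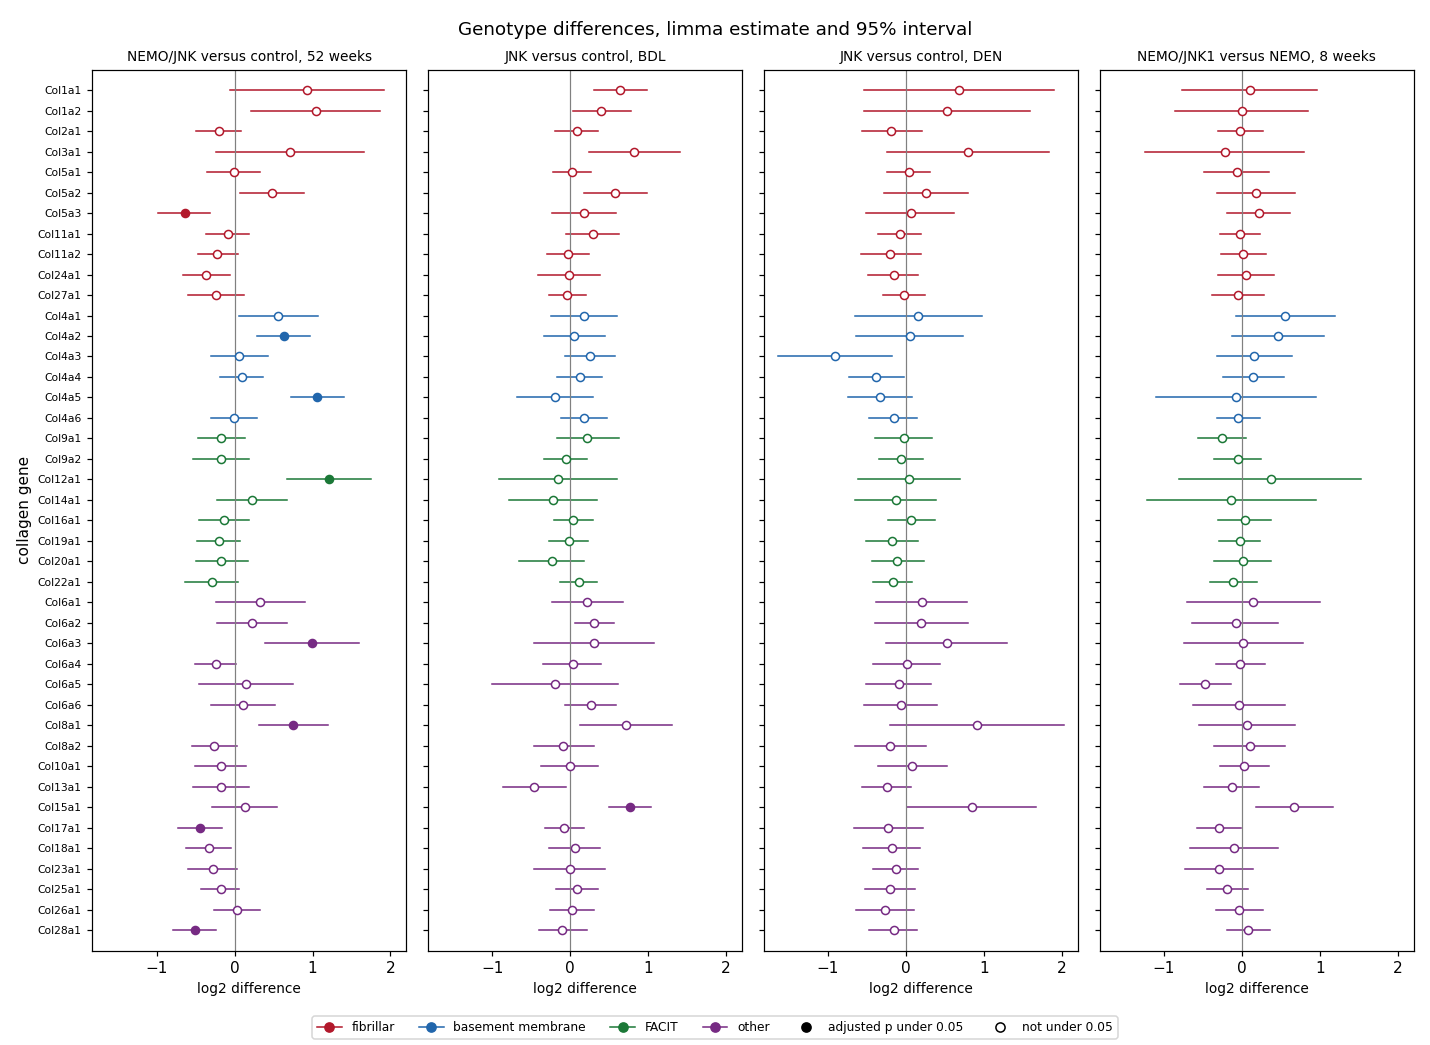
Points are log2 differences between genotype labels for the 42 collagen genes, by comparison, with 95 percent intervals from limma and filled points at an adjusted p under 0.05. At 52 weeks 5 genes lie to the right and 3 to the left with filled points, after BDL 1 does (Col15a1), and the panels after DEN and at 8 weeks hold open points only.

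Of 29 synthesis and processing genes 4 were higher and 2 lower at 52 weeks, with a median of 0.16, beside the 13.6 and 7.9 percent of all genes. Loxl1 averaged 5.75 ± 0.12 in NEMO/JNK livers and 4.51 ± 0.31 in control livers (1.23, limma adjusted p = 0.00142). Bmp1, the proteinase that trims the ends of procollagen, was lower by 0.66 (adjusted p = 0.00515), while Pcolce, which enhances that proteinase, was higher by 0.76 (0.0103). Of 9 receptors and uptake genes 6 were higher and 0 lower, with a median of 0.64. Ddr1, a collagen receptor kinase of epithelial cells, averaged 6.96 ± 0.32 and 4.46 ± 0.45 (2.50, adjusted p = 0.00027). Lair1, an inhibitory collagen receptor of leukocytes, was higher by 1.42 (0.00437), and Itga2, the integrin chain that binds type I collagen, by 1.01 (0.0112).

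Markers of several cell types differed between these groups, where 13.6 percent of all genes were called higher and 7.9 percent lower. Biliary epithelial markers were higher in 8 of 8 (mean level 7.90 to 8.42 in NEMO/JNK livers and 4.84 to 5.30 in control livers), portal fibroblast markers in 4 of 6 (5.53 to 6.12 and 4.78 to 4.81) and macrophage markers in 6 of 7 (8.80 to 9.68 and 7.38 to 8.03). Mesothelial markers were higher in 1 of 6 (4.66 to 4.81 and 3.87 to 4.58), near the share of all genes. Stellate cell and myofibroblast markers were higher in 3 and lower in 2 of 13 (6.93 to 7.48 and 6.73 to 7.27), and hepatocyte markers were not called. Their part in the collagen differences was not tested.

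At 8 weeks no member was called between livers labelled NEMO/JNK1 and NEMO by limma, with 0 percent of all genes called in either direction. An unadjusted p under 0.05 was reached by 3 of 42 members and 1442 of 18820 genes. Col6a5 had 4.64, 4.83 and 4.76 in NEMO/JNK1 livers and 5.01, 5.35 and 5.26 in NEMO livers (-0.47, SE 0.14, adjusted p = 0.602). Col15a1 had 6.36, 6.34 and 6.83, against 5.83, 5.54 and 6.13 (0.67, SE 0.21, adjusted p = 0.602), and Col17a1 3.29, 3.45 and 3.53, against 3.66, 3.76 and 3.70 (-0.29, SE 0.12, adjusted p = 0.647). The groups did not overlap in these 3 genes. In all they were apart for 1 member higher and 4 lower (2.38 and 9.52 percent), against 6.71 and 7.66 percent of all genes.

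The main fibrillar chains were close at 8 weeks, with wide intervals. Col1a1 had 7.11, 7.83 and 6.98 in NEMO/JNK1 livers and 6.71, 7.0 and 7.92 in NEMO livers (0.10, 95 percent interval -0.77 to 0.96). Col1a2 had 7.02, 7.50 and 6.56, against 6.74, 6.62 and 7.73 (0.00, -0.86 to 0.85), and Col3a1 6.76, 7.60 and 6.54, against 6.59, 6.95 and 8.03 (-0.22, -1.24 to 0.80). Each group held 1 high liver. Col4a1 had 6.52, 7.08 and 7.20, against 5.95, 6.38 and 6.79 (0.56, -0.08 to 1.19), and Col4a2 6.01, 6.80 and 6.65, against 5.80, 5.96 and 6.32 (0.46, -0.12 to 1.05). Col6a3 had 6.55, 6.27 and 5.71, against 6.19, 5.62 and 6.67 (0.02, -0.74 to 0.78). Col12a1 was highest in NEMO/JNK1 replicate 2, at 6.55, against 4.67 to 5.38 in the other 5 livers. Of the synthesis and receptor genes 0 were called, with 3 and 1 at an unadjusted p under 0.05.

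Col15a1, named after its values were seen, was the member with separate groups in 3 of the 4 genotype comparisons. It differed by 0.76 after BDL, by 0.84 after DEN and by 0.67 at 8 weeks, and was called in the first of these alone. In these 3 comparisons the first group lay above the second for 9.95, 3.26 and 6.71 percent of all genes. How many genes did so in all 3 was not counted. After DEN, JNK replicate 2 stood apart (7.19, against 5.96 and 5.81), and at 8 weeks animal series and genotype cannot be told apart. At 52 weeks Col15a1 differed by 0.13 (95 percent interval -0.29 to 0.55), with values of 6.18, 5.56 and 6.17 in NEMO/JNK livers and 5.66, 5.98 and 5.87 in control livers.

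Neighbouring collagen genes had similar differences in some places and unlike ones in others. Col4a1 and Col4a2, whose starts were shown above, differed by 1.27 and 1.26 between the injuries in JNK livers, 1.25 and 1.25 in control livers, 0.56 and 0.63 at 52 weeks and 0.56 and 0.46 at 8 weeks. Col3a1 and Col5a2, with 24624 bases between them on chromosome 1, were both higher after BDL than after DEN. The differences were 2.78 and 1.83 in JNK livers and 2.74 and 1.52 in control livers. Col6a1 and Col6a2, with 85161 bases between them on chromosome 10, were higher after BDL by 1.32 and 1.10 in control livers.

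The X-linked pair diverged. Col4a5 and Col4a6, separated by 1274 bases, differed by 1.06 and -0.01 between NEMO/JNK and control livers of 52 weeks (95 percent interval of Col4a6 -0.30 to 0.29). On chromosome 9, Col6a6, Col6a5 and Col6a4 follow one another with 27823 and 27854 bases between them. Col6a5 differed by 2.10 between BDL and DEN in JNK livers and 2.21 in control livers, whereas Col6a6 differed by 0.14 and -0.19 and Col6a4 by -0.05 and -0.06. A second probe set of Col6a6 gave 0.52 and -0.65. No detection call came with the values, so that it is not known whether these dim genes were above background.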

How the data were processed

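Liver RNA of 24 mice was measured on Affymetrix whole-transcript arrays, 1 for each liver, in 8 groups of 3 taken from the labels. The deposited values are log2 probe set signals, and the submitters' processing notes name RMA as the method of the authors. Its program and chip definition, and which arrays entered the normalisation, were not stated in what was used here. Of 35556 probe sets, 21218 had 1 gene symbol, 1881 several and 12457 none. Those with 1 symbol stood for 18820 genes, and 21185 of them matched RefSeq genes of GRCm38.p6. All 18820 genes were tested as deposited, unfiltered, with limma 3.58.1 in R 4.3.3, each pair of groups on its own 6 arrays. Tests were two-sided, with Benjamini-Hochberg adjustment over all genes, and called at an adjusted p under 0.05. An exact permutation test of 3 against 3 cannot go below 0.1 and was not used. Values per liver were given for Col1a1, Col1a2, Col3a1, Col4a1, Col4a2, Col6a3 and up to 8 called members by smallest p in a comparison, or the 3 smallest unadjusted p-values where under 3 were called. Up to 3 called genes of each accompanying list were named. Other members were named after their values were seen. The members and lists were chosen with earlier results of these data known. The procedure was tested on simulated data. Alternatives were array centring, quantile normalisation, 1 fit of all arrays, array weights, a filter at a mean of 4, the mean of a gene's probe sets, an intensity trend, the replicate number, the animal series and leaving out each liver. The number of arrays limits the precision. Replicates have separate mouse identifiers. Same-numbered livers deviated together with r between -0.19 and 0.36, so that the numbers were not taken as pairs.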

Additional observations from a re-analysis of the deposited data

How the results depend on the processing

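Of 582 values of the single genes tested by name, 458 kept their direction and side of the threshold, 122 kept the direction and were no longer called, 2 became called (Col1a1 between JNK and control after BDL, and Col4a3 in the interaction) and 0 changed sign. The 458 include genes that were not called in the main fit and stayed uncalled, so that they do not measure how often a call held. All 122 belong to genes called in the main fit. The 582 values do not cover all members, of which others became called when a liver was left out, as given with each comparison. For NEMO/JNK against control at 52 weeks the members higher and lower were 3 and 21 with centred arrays, 3 and 10 with quantile normalisation, and 2 higher with all 24 arrays in 1 fit. Of 18820 genes, 1570 and 8942 were called with centred arrays, 2115 and 2426 with quantile normalisation, and 1999 higher with all 24 arrays. Leaving out 1 liver gave 2 to 9 members higher and 1 to 3 lower. For JNK against control after BDL, 0 were higher with all 24 arrays, with the replicate block or with animal series as a term, and 0 to 1 when a liver was left out. For BDL against DEN in control livers, 6 were higher with the replicate block and 2 with animal series, and 4 to 13 higher and 0 to 1 lower when a liver was left out. In JNK livers the number higher was 10 with centred arrays, 12 with all 24 arrays, 17 with array weights, 0 with the replicate block and 3 with an intensity trend, and 0 to 16 when a liver was left out. Of all genes 170, 189, 1337, 1 and 147 were called higher in the fits that kept every liver, in that order. The interaction gave 0 to 1. The replicate block uses numbers that are not shown to pair the livers, and it takes up 2 degrees of freedom. The cause of the other shifts was not tested. Low values carry no detection call, so that a small difference among the dim collagens cannot be told from noise here.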
